A study of Mus musculus with 4 samples.

Results

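Yap1 and the genes beside it on mouse chromosome 9 were followed in whole embryonic lungs, control lungs against lungs in which Yap had been deleted in the epithelium. The set was named gene by gene: Yap1, the target of the deletion, and Dync2h1, Tmem123, Birc2, Birc3, Angptl5, Cep126, Trpc6 and Pgr, which were listed as lying at or near its locus. Of the 9 names, 8 matched exactly 1 row each of the 52636 genes in the deposited table. Angptl5 had no row under that symbol in the mouse annotation, GENCODE M21, and is not described further. All lungs came from C57BL/6 embryos at embryonic day 14.5. The control group (n = 2) is labelled wild type and the other group (n = 2) Yap conditional knockout, shortened here to Yap CKO. The labels give neither the Cre driver, the exons removed nor whether the controls carried unrecombined alleles. The libraries of a group are numbered 1 and 2, and no label ties a number to an embryo or a litter. The p-values therefore measure only how far these samples spread, and that spread may be technical.

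Yap1 encodes YAP, the transcriptional coactivator on which the Hippo pathway acts. Hippo kinases phosphorylate YAP and hold it in the cytoplasm, and unphosphorylated YAP enters the nucleus and works with the DNA-binding TEAD factors, which recognise the letters GGAATG. In the lung YAP is known for its part in airway branching and in the fate of epithelial progenitors. The neighbours do unrelated work. Birc2 and Birc3 encode the ubiquitin ligases cIAP1 and cIAP2, which restrain cell death and non-canonical NF-κB signalling. Dync2h1 encodes the heavy chain of dynein-2, the motor that carries cargo back from the tip of the cilium, and Cep126 encodes a centrosomal protein of the cilium base. Trpc6 encodes a calcium-permeable channel, Pgr the progesterone receptor and Tmem123 a membrane glycoprotein also called porimin.

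The 8 genes span both sides of Yap1 in mm10 (GRCm38). On the side of lower coordinates lie Dync2h1 (chr9:6928503-7184446, minus strand), Tmem123 (chr9:7764041-7794333, plus strand), Birc2 (chr9:7818227-7837064, minus strand) and Birc3 (chr9:7848699-7873186, minus strand). Yap1 occupies chr9:7931999-8004596 on the minus strand. On the other side lie Cep126 (chr9:8076461-8134294, minus strand), Trpc6 (chr9:8544142-8680741, plus strand) and Pgr (chr9:8899833-8968611, plus strand). The nearest member to Yap1 is Birc3, 58.8 kb away, and the farthest is Pgr, 895.2 kb away. All 8 are annotated as protein-coding.

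Yap1 and Dync2h1 each start back to back with a gene on the other strand, and in both pairs only a short stretch separates the annotated starts. The start of Gm45494, annotated as a long noncoding RNA of a bidirectional promoter, lies 234 bases from that of Yap1. The start of Dcun1d5, which encodes a factor of protein neddylation, lies 74 bases from that of Dync2h1 in GENCODE M21. RefSeq places its window for the start of Dync2h1 elsewhere, at chr9:7177009-7177308, inside the GENCODE gene body. The sequences between the starts are shown because the 2 partners of each pair can then be compared from the same stretch of DNA. They were cut at the GENCODE starts from the RefSeq promoter windows of Yap1 and Dcun1d5 (GRCm38.p6), are written on the minus strand, 5′ to 3′, and run towards Yap1 or Dync2h1. Capitals mark GGAATG, the letters of the TEAD site, in the Yap1 stretch, and CCGGAAGT, the letters bound by ETS factors, in the Dync2h1 stretch.
Yap1 to Gm45494, chr9:8004597-8004829: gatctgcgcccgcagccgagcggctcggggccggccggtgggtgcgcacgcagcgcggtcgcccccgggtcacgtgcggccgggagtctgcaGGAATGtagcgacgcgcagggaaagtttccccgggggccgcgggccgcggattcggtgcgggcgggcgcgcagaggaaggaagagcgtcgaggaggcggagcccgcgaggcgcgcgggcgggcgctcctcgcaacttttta
Dync2h1 to Dcun1d5, chr9:7184447-7184519: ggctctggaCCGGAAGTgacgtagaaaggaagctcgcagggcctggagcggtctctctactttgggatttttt
The 233 bases beside Yap1 were 75.5% G or C and held 40 CpG dinucleotides. The 73 bases beside Dync2h1 were 54.8% G or C and held 4. RefSeq gave promoter windows of 300 bases (250 before the start) for all 8 genes. On either strand GGAATG occurred once in the window of Yap1 and in none of the windows of the other 7, against 14.7% of all 32851 mouse windows. CCGGAAGT occurred once in the RefSeq window of Dync2h1, which does not hold the printed stretch, once in a window of Dcun1d5, which does, and in none of the windows of the other 7, against 3.89% of all windows. Such a match describes the letters only and shows no binding.

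The values are normalized read counts, in which the authors divided the reads of each gene by 1 factor per library. Libraries held 17756301 to 21333878 reads. Markers of several cell types and tissues, within the lung or outside it, moved with the groups. Genes with a mean of at least 10 normalized counts over the 4 libraries were tested, and limma called 2.33% of them in either direction. Gut epithelium markers, of which 5 of 7 tested rose, summed to 101.8 and 88.9 in controls and to 2442 and 1702 in Yap CKO. Cdx2, Guca2a, Reg4 and Tff3 were at 0 in both controls, so any of them tested reached that mean through Yap CKO alone. Of 8 liver markers 4 were tested and all 4 rose. Alb, Apoa1 and Ttr reached that mean only through Yap CKO (control means 7, 2.72 and 2.34). The untested ones had means below 10 in both groups. The 8 summed to 28.1 and 83 in controls and to 1640 and 900.4 in Yap CKO. Smooth muscle markers, of which 5 of 10 fell, summed to 23037 and 25511 in controls against 9554 and 13203 in Yap CKO. The part of these cell types and tissues in the values below was not tested.

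Yap1, the targeted gene, did not separate the groups. Controls 1 and 2 had 5686 and 3467 normalized counts of Yap1, and the Yap CKO libraries 1 and 2 had 3209 and 4483. Control 1 was highest and Yap CKO 1 lowest, but Yap CKO 2 lay above control 2, so the groups overlapped. The group means were 4577 ± 1569 in control and 3846 ± 900.4 in Yap CKO (SD, n = 2 each). On the log2(normalized count + 1) scale the difference, Yap CKO minus control, was -0.23 ± 0.25 (SE, limma, adjusted p = 0.683). Its 95% interval ran from -0.83 to 0.38, which is 0.56 to 1.30 times the control level. The counts cover all cells of the lung and the whole gene, so they do not check the label of a deletion in the epithelium alone, and fewer cells of a type and less RNA per cell cannot be told apart here.

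**Figure D1:**
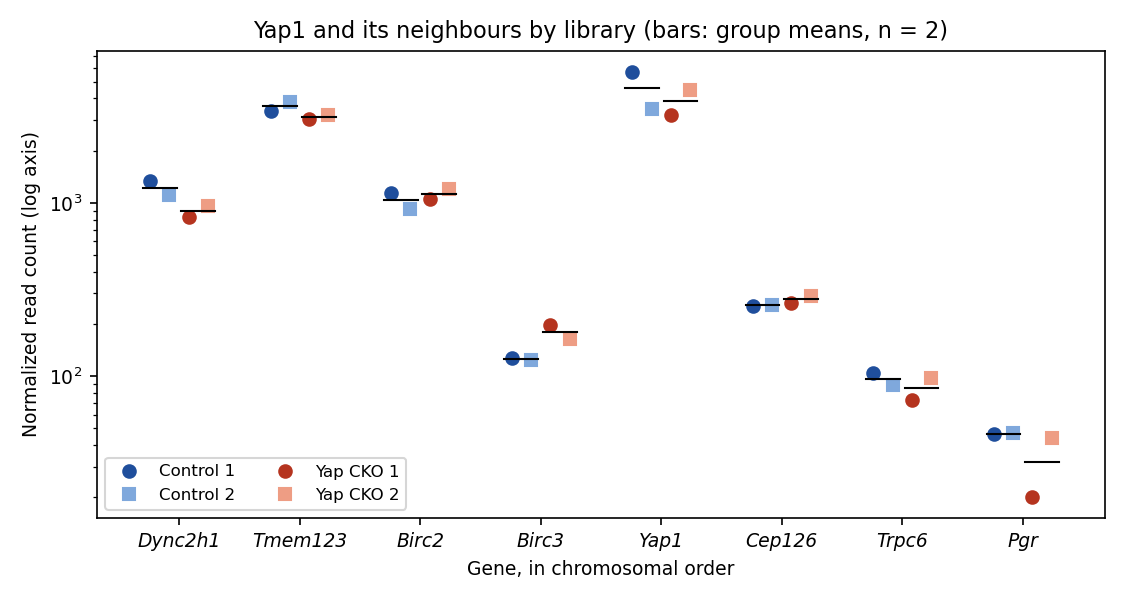
Normalized read counts (log axis) of Yap1 and its 7 measured neighbours in chromosomal order, 1 point per library, with black bars at the group means (n = 2 per group). Yap1 is at 5686 and 3467 in controls and at 3209 and 4483 in Yap CKO, so its groups overlap. Those of Birc2 and Trpc6 overlap too, while those of Dync2h1, Tmem123, Birc3, Cep126 and Pgr do not, against 50.8% of all genes tested.

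The Yap1 difference turned on which library was left out. Without control 2 it was -0.58 and passed the test (limma, adjusted p = 0.0108), in a fit that called 12.6% of all genes tested. Without control 1 it was 0.13 (adjusted p = 0.648), the other way. Leaving out Yap CKO 1 gave 0.014 and leaving out Yap CKO 2 gave -0.47, neither past the threshold.

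The libraries of 1 group lay far apart in Yap1. Control 1 exceeded control 2 by 0.71 on the log2 scale, and Yap CKO 1 was below Yap CKO 2 by the measured difference of -0.48. Counting error does not span these gaps. The 5868 reads of control 1 have an exact Poisson 95% interval of 5720 to 6020, and the 2965 reads of control 2 one of 2860 to 3070. The 3338 reads of Yap CKO 1 have an interval of 3230 to 3450 and the 4809 reads of Yap CKO 2 one of 4670 to 4950. These reads are not scaled for depth, so part of the distance between the intervals is depth. The scaling factors were 1.0319 and 0.8551 for controls 1 and 2 and 1.0401 and 1.0728 for Yap CKO 1 and 2. PCR copies of 1 molecule are not independent reads, so the intervals hold for counting error alone. Of the 2263 genes whose mean level lay within 2-fold of that of Yap1, 1.5% had controls at least as far apart and 0.751% had Yap CKO libraries at least as far apart.

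**Figure D2:**
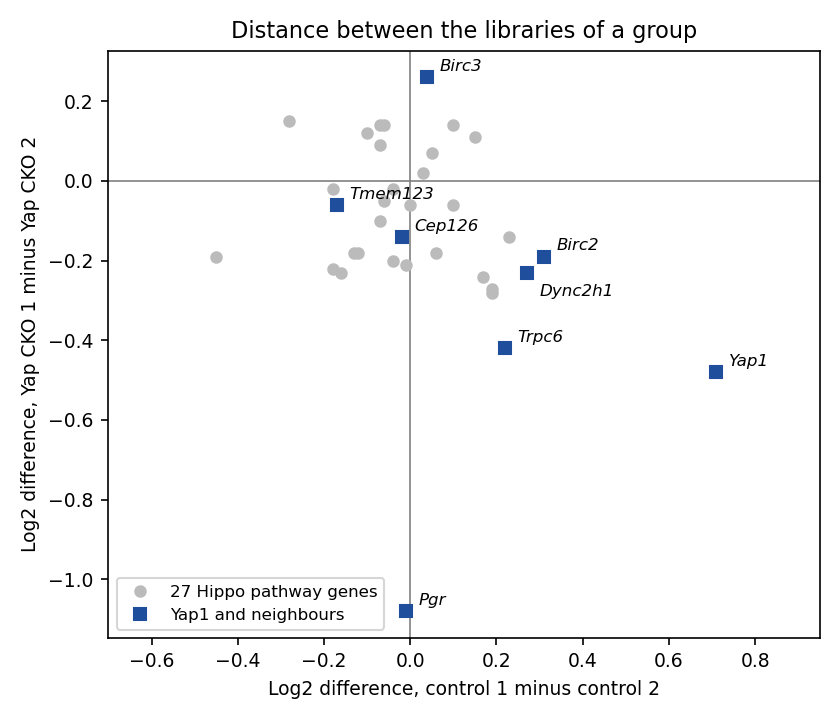
Log2 difference between control 1 and control 2 (horizontal axis) and between Yap CKO 1 and Yap CKO 2 (vertical axis) for Yap1 and its neighbours (blue squares) and the 27 listed Hippo pathway genes (grey circles). Yap1 lies at 0.71 and -0.48, Pgr at -0.01 and -1.08.

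Within each group the sum of the heart muscle markers was higher in the library with less Yap1. The 15 heart markers summed to 1832 and 50925 normalized counts in controls 1 and 2 and to 11358 and 2114 in the Yap CKO libraries, and all 15 were detected in every library except Nppb, at 0 in Yap CKO 2. Across the groups the order differed, since Yap CKO 1 was lowest in Yap1 (3209) but control 2 had the largest heart sum. These heart sums were 0.00888% to 0.245% of a library's total. None of the 15 passed limma's test between the groups (limma; 1 with an unadjusted p under 0.05; edgeR called 0 and DESeq2 0). The 17 lung epithelium markers differed less between libraries of a group, with sums of 31240 and 29513 in controls and 24764 and 26307 in Yap CKO. Of these markers 2 rose and 3 fell, where limma called 2.33% of all genes tested. Values were negative for 14, with a median of -0.42, and 13 had an unadjusted p under 0.05 (limma; 18.9% of all genes tested). edgeR called 5 of them and DESeq2 8. None of the epithelial markers was at 0. The order of the heart sums within groups was not particular to them. Mesothelium marker sums had it too (4051 and 5435 in controls, 3841 and 3124 in Yap CKO). So did every other marker list except lung epithelium, smooth muscle, erythroid and gut epithelium. Of these only the lung epithelium sums were higher, in both groups, in the library with more Yap1. The part of any of these lists in the value of Yap1 was not tested.

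**Figure D3:**
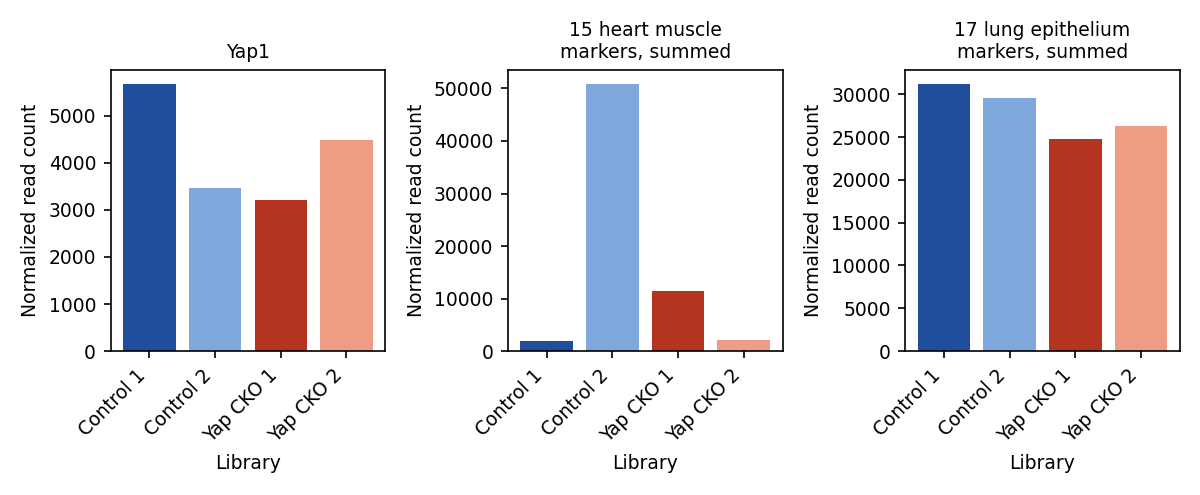
Normalized read counts by library for Yap1 (left), the sum of 15 heart muscle markers (middle) and the sum of 17 lung epithelium markers (right), 1 bar per library. Control 2 and Yap CKO 1, the libraries lowest in Yap1, have the largest heart sums, 50925 and 11358.

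Wwtr1 encodes TAZ, the paralog of YAP, and its libraries lay close together within each group. It stood at 2718 and 2719 normalized counts in controls and at 2091 and 2182 in Yap CKO. All Yap CKO values were below all control values, but the difference of -0.35 ± 0.09 did not pass over all genes (limma, adjusted p = 0.103). The ratio of Yap1 to Wwtr1 counts within a library, which no scaling between libraries alters, was 2.09 and 1.28 in controls 1 and 2 and 1.53 and 2.05 in the Yap CKO libraries. The ratios of the groups overlapped (exact permutation p = 1.0, two-sided, where 2 against 2 libraries cannot go below 0.333).

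Of the other Hippo pathway genes, 1 of 27 passed the test (limma; 2.33% of all genes tested did), and 10 had an unadjusted p under 0.05 (18.9% of all genes tested). DESeq2 called 6 of them, against 5.54% of the 18717 genes to which it gave an adjusted p, and edgeR called 1, against 2.07%. Values were negative for 21 of the 27, beside 9858 of all 19472 genes tested. Wwc1, which encodes KIBRA, a scaffold upstream of the Hippo kinases, fell from 1045 and 892.3 in controls to 498 and 547.2 in Yap CKO (log2 change -0.89 ± 0.12, limma, adjusted p = 0.0245). Its call ended without the filter on low values (limma, adjusted p = 0.0808) and without the intensity trend (0.119). These settings called few genes of any kind, 39 rises and 17 falls, and 5 and 1. Without Yap CKO 1 the Wwc1 difference was -0.82 and without Yap CKO 2 it was -0.95. Neither was called, in fits that called almost no gene. The median difference of the 27 was -0.12, beside 0 for all genes tested, and 16 had groups that did not overlap, against 50.8% of all genes tested. In 14 of the 27 the groups did not overlap and the Yap CKO libraries were the lower ones, against 25.6% of all genes tested. Of 22 measured YAP and TAZ target genes 1 fell, and the median was -0.19. In this list 10 had an unadjusted p under 0.05, 19 had negative values, and 12 had groups that did not overlap, 11 of them with Yap CKO lower. Amotl2, Ajuba, Lats2 and Ptpn14 are in both this list and the Hippo list, so the counts of the lists are not separate. DESeq2 called 5 of the 22 and edgeR called 0. The called gene was Tgfb2, a growth factor gene, at 3896 and 4303 in controls and 2742 and 2910 in Yap CKO (-0.54, limma, adjusted p = 0.0481). The call held with other pseudocounts, a filter at a mean of 50, DESeq2 and libraries paired across numbers. edgeR did not call Tgfb2 (adjusted p = 0.0596). Nor did limma without the filter on low values (0.118), without the intensity trend (0.174) or with same-numbered libraries paired (0.052). With equal totals (limma, 0.0615), median ratio scaling (0.0523) or quantile normalization (0.0562) Tgfb2 was not called. Without Yap CKO 1 (-0.49) or Yap CKO 2 (-0.58) it was not called either, in the same fits that called almost no gene. Over all settings run its adjusted p lay between 0.000251 and 0.445.

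A pair of genes transcribed from the far side of the Yap1 start or within its body were scarcely detected. Gm45494, across the stretch printed above, had 7 and 12 reads in controls 1 and 2 and 2 and 7 in the Yap CKO libraries, with exact Poisson 95% intervals of 6.2 to 21 for the highest and 0.242 to 7.22 for the lowest. Gm20416, on the opposite strand inside Yap1, shares 116 exonic bases with it and had 1 or 2 reads in each library. Without a stated strand setting reads over those 116 bases cannot be assigned to either gene. Yap1 shared 1.35% of the 50-base words of its transcripts with other genes, most of these with Gm20416. The printed stretch therefore lies between a gene with at least 2965 reads in each library and one with at most 12.

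Across the 8 genes none passed the test between Yap CKO and control over all genes (limma; 2 with an unadjusted p under 0.05; edgeR called 0 and DESeq2 0). Over all 19472 genes tested 2.33% were called by limma, 2.07% by edgeR and 5.54% by DESeq2, and 18.9% had an unadjusted p under 0.05 in limma. The median difference of the 8 was -0.19, with 3 above 0 and 5 below. In 5 of the 8 the groups did not overlap, against 50.8% of all genes tested. Without control 2 the call was made for 2 of the 8, Yap1 and Dync2h1, and without each of the other 3 libraries for none. These fits differed in how many genes they called at all, with 12.6% for the fit lacking control 2 and the same share for that lacking control 1. The share was 0.0103% where Yap CKO 1 was left out and 0.0359% where Yap CKO 2 was.

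Dync2h1, the dynein-2 heavy chain gene, was the lower neighbour nearest to the threshold. It stood at 1336 and 1110 normalized counts in controls and at 823 and 963.8 in Yap CKO. Both Yap CKO values were below both controls. The difference was -0.45 ± 0.13 (95% interval -0.77 to -0.13), with an unadjusted p of 0.0133 and an adjusted p of 0.148 (limma). Without control 2 it was -0.58 and passed (adjusted p = 0.00495). Dcun1d5, which starts 74 bases away in the other direction, showed no such order, at 1029 and 953.1 in controls and 1056 and 1027 in Yap CKO (0.07 ± 0.10, adjusted p = 0.744). The ratio of Dync2h1 to Dcun1d5 counts within a library was 1.30 and 1.16 in controls and 0.78 and 0.938 in Yap CKO. The groups of ratios did not overlap, and the exact permutation p was 0.333, two-sided, the smallest that 2 against 2 libraries allow.

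The other subunits and partners of dynein-2 did not pass either. Of 14 matched genes of the motor and of the intraflagellar transport complex that it serves none was called (limma; 1 with an unadjusted p under 0.05; edgeR called 0 and DESeq2 1). Over all genes tested 18.9% had such a p, and limma called 2.33%, edgeR 2.07% and DESeq2 5.54%. The median of the 14 was -0.07. The light chain gene Dynll2, shared with other motors, stood at 6479 and 7140 in controls and at 4745 and 5423 in Yap CKO (-0.42, adjusted p = 0.109). Ift122, a gene of the retrograde transport complex, stood at 919.6 and 791.7 in controls and 682.6 and 779.3 in Yap CKO (limma, -0.23, adjusted p = 0.396). Cep126, the centrosomal gene on the other side of Yap1, varied little within either group, with 254.9 and 258.4 in controls and 263.4 and 290.8 in Yap CKO. Its groups did not overlap, but the difference of 0.11 ± 0.14 had an interval from -0.22 to 0.44 (limma, adjusted p = 0.728). Cfap300, a gene of cilium assembly between Yap1 and Cep126, was at 342.1 and 286.5 in controls and 301.9 and 273.1 in Yap CKO, with overlapping groups (adjusted p = 0.713).

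The cIAP genes, neighbours of each other and of Yap1, differed in their values. Birc3 was at 127.9 and 124 normalized counts in controls and at 197.1 and 164.1 in Yap CKO. Both Yap CKO libraries were above both controls. The difference was 0.51 ± 0.18 (95% interval 0.08 to 0.94), with an unadjusted p of 0.0267 and an adjusted p of 0.20 (limma). It stayed between 0.38 and 0.64 when each library was left out in turn. Birc2 stood at 1142 and 921.5 in controls and at 1051 and 1200 in Yap CKO, with overlapping groups (0.13 ± 0.14, interval -0.20 to 0.46, adjusted p = 0.662), and was -0.024 without control 2.

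Birc2 and Birc3 are paralogs, so part of their reads may not be unique to either. Of all 50-base words in their annotated transcripts they had 65 in common, out of 4579 for Birc2 and 5079 for Birc3. Birc3 shared 7.56% of its words with other genes, most of them with Gm7019, and Birc2 shared 1.49%. The treatment of reads with several matches is not given in the labels used here. The ratio of Birc3 to Birc2 was 0.112 and 0.135 in controls and 0.188 and 0.137 in Yap CKO, with control 2 and Yap CKO 2 almost level (exact permutation p = 0.333, two-sided, the smallest possible).

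Other genes of the same families stood as follows. Of 6 tested genes of the other inhibitors of apoptosis none was called (limma; 1 with an unadjusted p under 0.05; edgeR called 0 and DESeq2 1). Over all genes tested 18.9% had such a p, and limma called 2.33%, edgeR 2.07% and DESeq2 5.54%. Birc6, which encodes a giant ubiquitin ligase, had 5664 and 5704 in controls and 4018 and 4560 in Yap CKO (-0.41, adjusted p = 0.0981), and Xiap had 3749 and 3677 against 3057 and 3454. Of 19 genes for receptors, adaptors, kinases and caspases around the cIAP proteins none was called (limma; 0 with an unadjusted p under 0.05; edgeR called 0 and DESeq2 0), with a median of -0.07. Rela, an NF-κB subunit gene, differed by -0.24 (adjusted p = 0.287) and Map3k14, the kinase gene of the non-canonical NF-κB branch, by 0.32 (adjusted p = 0.435).

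Tmem123 was the most abundant of the set per length and slightly lower in Yap CKO. It stood at 3399 and 3823 normalized counts in controls and at 3062 and 3202 in Yap CKO. The groups did not overlap, and the difference of -0.20 ± 0.10 had an interval from -0.44 to 0.03 (limma, adjusted p = 0.329). None of its 50-base words occurred in transcripts of another gene.

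The channel gene and the receptor gene farther out were low and imprecise. Trpc6 stood at 103.7 and 88.9 in controls and at 73.1 and 97.9 in Yap CKO, with overlapping groups (-0.18 ± 0.24, interval -0.75 to 0.39, adjusted p = 0.734). Pgr stood at 46.5 and 46.8 in controls and at 20.2 and 43.8 in Yap CKO. The groups did not overlap only by the narrow gap between 43.8 and 46.5, and 1 library, Yap CKO 1, carried the difference of -0.63 ± 0.40 (interval -1.60 to 0.34, adjusted p = 0.464). Its 21 reads have an exact Poisson 95% interval of 13 to 32.1, which the 47 reads of Yap CKO 2 (34.5 to 62.5) lie above. Without Yap CKO 1 the Pgr difference was -0.09. Of 5 other steroid receptor genes none was called (limma; 1 with an unadjusted p under 0.05; edgeR called 0 and DESeq2 0). Over all genes tested 18.9% had such a p, and limma called 2.33%, edgeR 2.07% and DESeq2 5.54%. Among the 5 was Esr2 at 10.7 and 22.2 in controls and 30.8 and 42 in Yap CKO (limma, adjusted p = 0.226).

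**Figure D4:**
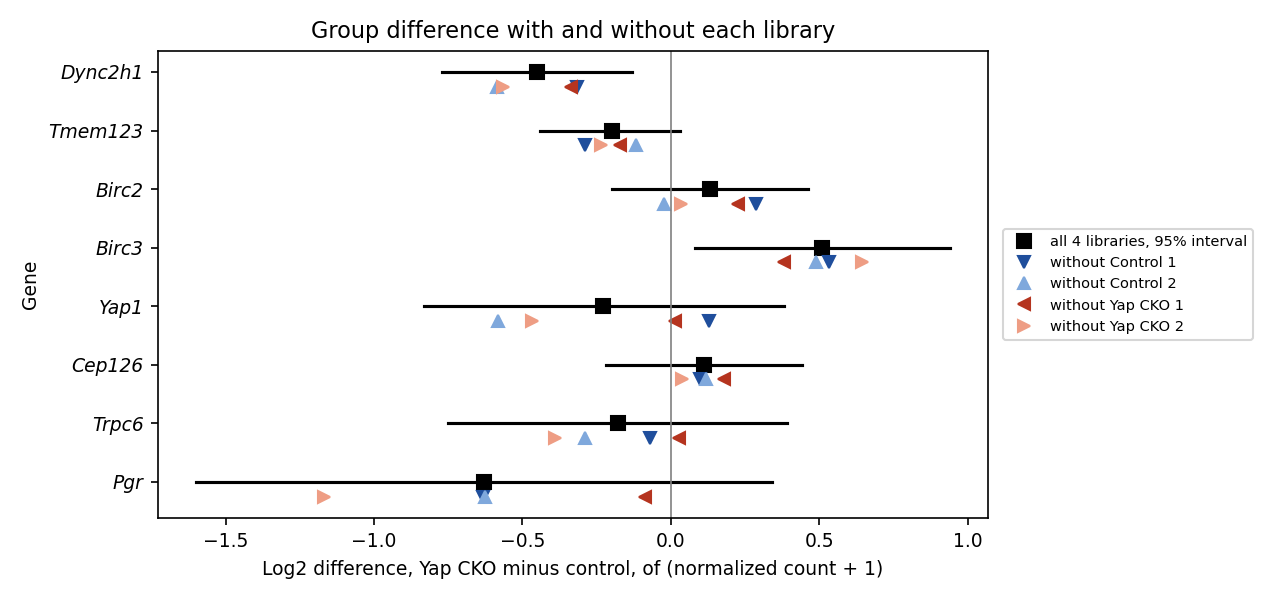
Log2 difference (Yap CKO minus control) of each gene in the fit with all 4 libraries (black square, 95% interval) and with each library left out (coloured triangles). Birc3 stays above 0 and Dync2h1 and Tmem123 below it in every fit, while Yap1 runs from -0.58 to 0.13.

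Per kilobase of annotated exon, averaged over the 4 libraries, Tmem123 was highest (1084 normalized counts per kb), followed by Yap1 (454.9), Birc2 (235.5), Dync2h1 (64.7), Cep126 (57.8), Birc3 (30.6), Trpc6 (17.9) and Pgr (4.60). The exon length is the union over all annotated transcripts, which lowers the level of genes with long rare isoforms. Neighbours in this order did not overlap in any library, except Dync2h1 (50.3 to 81.7) and Cep126 (55.2 to 63). Yap1, from 346.7 to 614.3 normalized counts per kb, exceeded 83.8% of the genes tested, and Pgr exceeded 3.62%.

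No tested gene around Yap1 passed the test between the groups. Within 2 Mb of its gene body the annotation holds 53 genes, all with a row, of which 18 had 0 reads in every library and 17 passed the filter. None of the 17 was called (limma; 2 with an unadjusted p under 0.05; edgeR called 0 and DESeq2 0), and their median difference was -0.06. Over all genes tested 18.9% had such a p, and limma called 2.33%, edgeR 2.07% and DESeq2 5.54%. The groups did not overlap in 6 of the 17, against 50.8% of all genes tested. Of 10 matrix metalloproteinase genes between Dync2h1 and Tmem123, which encode enzymes that cut extracellular matrix, none passed the filter and 5 had no read. Leaving out control 2 gave -0.58 for Yap1, -0.58 for Dync2h1 and -0.40 for the processed pseudogene Gm10709. Leaving out control 1 gave 0.13, -0.32 and 0.40, so Yap1 and Gm10709 changed sign with the control left out. Gm10709 stood at 1177 and 677.1 in controls and 917.2 and 866.9 in Yap CKO. Its groups overlapped (limma, interval -0.58 to 0.58, adjusted p = 0.997).

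Among the protein-coding genes of the window outside the named set, none was called. Arhgap42 stood at 1403 and 1357 in controls and 1223 and 1433 in Yap CKO (limma, adjusted p = 0.813). Pdgfd, a growth factor gene, stood at 85.3 and 168.4 in controls and 134.6 and 115.6 in Yap CKO (0.06, 95% interval -0.73 to 0.84, adjusted p = 0.947). Its difference was imprecise, at -0.43 without control 1 and 0.54 without control 2. On the side of lower coordinates the median of the 6 tested protein-coding genes was 0.06, and on the other side that of 5 was -0.12. The differences next to Yap1 had both signs, with Birc3 at 0.51 and Cfap300 at -0.12 on either side.

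**Figure D5:**
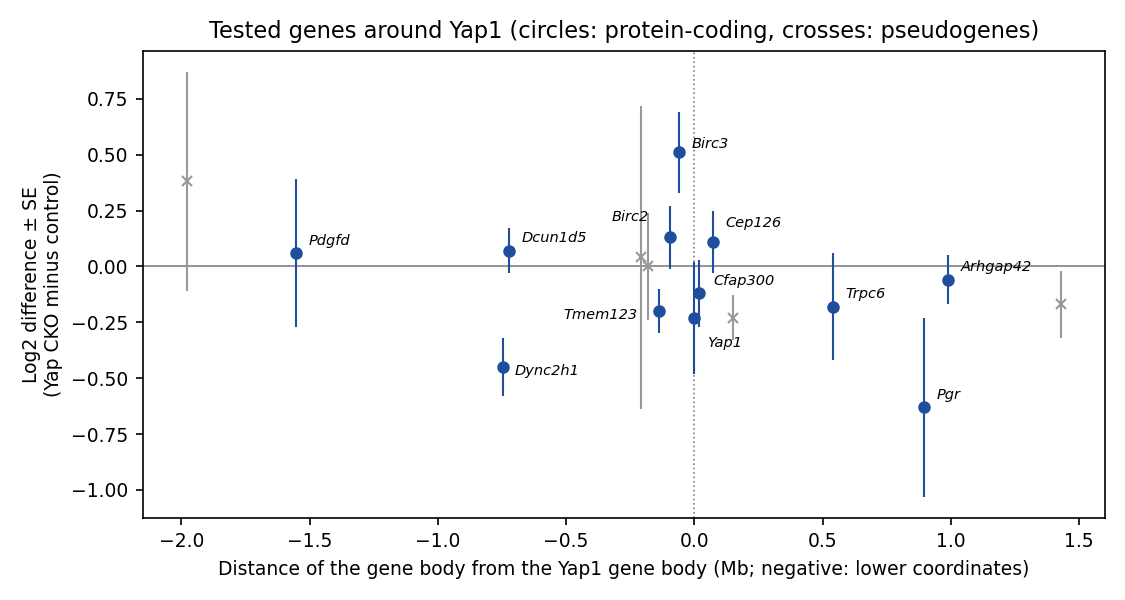
Log2 difference (Yap CKO minus control, with SE) of the 17 tested genes within 2 Mb of Yap1 against the distance of their gene bodies from that of Yap1, with circles for protein-coding genes and crosses for pseudogenes. None passed the test, and Birc3 (0.51) and Pgr (-0.63) lie at the extremes.

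The pattern of Yap1 over the 4 libraries was compared with that of 11560 protein-coding genes with a mean of at least 100 normalized counts. Likeness was the root mean square distance of centred log2 values, a description of 4 libraries. The nearest was Plek, which encodes pleckstrin of platelets and leukocytes (distance 0.031), at 350.8 and 212.8 in controls and 194.2 and 261.9 in Yap CKO. It was followed by Zkscan16 (0.081), Gm14288 (0.082), Xlr3b (0.084) and Cenpe (0.087), a kinesin gene of mitosis. Of the neighbours Dync2h1 was nearest, at rank 344 (distance 0.213), then Birc2 at rank 923 (0.251), while Birc3 was at rank 10727 (0.511).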

How the data were processed

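RNA sequencing of whole lungs gave 4 libraries, 2 per group. Per the file headers the authors' deposited values are normalized read counts, a non-negative signal, for 52636 Ensembl genes from mm10 alignments. Per the submitters' processing notes Bowtie2 2.2.9, featureCounts 1.5.0-p1, DESeq 1.16.0 and edgeR 3.18.1 were used, with no role or order. In each library 100% of values were whole multiples of 1 number (tolerance 0.001 reads), so reads were recovered. Libraries held 17756301 to 21333878 reads.

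Symbols and positions came from GENCODE M21, which matched 52489 rows. Values were taken as log2(normalized count + 1), and the 19472 genes with a mean of at least 10 entered limma 3.58.1 (R 4.3.3, intensity trend, two-sided), with Benjamini-Hochberg adjustment over all of them and a threshold of 0.05. The fit was tested on simulated data with changes larger than the differences of the members, so that run does not cover differences of their size. edgeR 4.0.16 and DESeq2 1.42.0 on the recovered reads, which called 404 and 1037 genes, other scalings, filters and pseudocounts, the replicate number as a block and leaving out each library were alternatives. The libraries of a group differed beyond sampling noise (chi-square per degree of freedom 22.1 for controls and 6.6 for Yap CKO) and were kept apart. The members and lists were chosen with earlier results of these data known. Named are all members, protein-coding genes tested within 2 Mb, called Hippo genes, Wwtr1, up to 2 genes of the smallest p per family list, and the 5 genes nearest to Yap1 in pattern. Tgfb2, Gm45494, Gm20416 and Gm10709 were named after their values were seen. Results of 1 family list are not reported here.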

Additional observations from a re-analysis of the deposited data

How the results depend on the processing

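Over all genes 231 rose and 223 fell. These counts were 39 and 17 without the filter on low values, 5 and 1 without the intensity trend, and 441 and 596 with DESeq2. With each library left out they ran from 0 to 1258 for rises and from 2 to 1262 for falls. The calls among the 8 genes ran from 0 to 2 and those within 2 Mb of Yap1 from 0 to 3, above 0 only without control 2. The Yap1 difference ran from -0.584 to 0.129 with a library left out, turning positive without control 1 (0.129) and without Yap CKO 1 (0.014). Birc2 ran from -0.024 (without control 2) to 0.285, and Trpc6 from -0.389 to 0.028 (without Yap CKO 1). The cause was not tested. With equal totals 62% of calls were rises, against 50.9% as deposited. Under the 11 planned settings that keep all 4 libraries, each of the 8 genes kept its direction and none was called, except that Pgr was not tested with the filter at a mean of 50. With the replicate block (same-numbered libraries, whose deviations correlated at -0.364, paired) Yap1 stayed at -0.227 with an adjusted p of 0.702, and 166 genes rose and 176 fell. With the numbers crossed, chosen after seeing the data, 432 rose and 540 fell. The labels do not say that a number marks a shared litter. With 21 to 48 reads a library, depth limits Pgr most.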
